A study of Mus musculus with 12 samples.

Results

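The genes described are 10 integrin subunits of leukocytes, 6 alpha chains (Itga4, Itga5, Itgal, Itgam, Itgav, and Itgax) and 4 beta chains (Itgb1, Itgb2, Itgb3, and Itgb7), which were found by their symbols among the 35303 gene symbols of the count table. All 10 were measured in every library and passed the filter on low counts. Poly(A)-enriched RNA was sequenced from 12 libraries of mouse myeloid-derived suppressor cells (MDSCs), 4 in each of 3 groups. All groups were wild type and spent the 24 hours before RNA was taken in medium with 40 ng/ml of IL-6, and the MDSCs came from the bone marrow of female C57BL/6 mice aged 6 to 10 weeks, cultured for 3 days with IL-6 and GM-CSF. The MDSC group was unmodified, MDSC-NP-Blk carried blank PLGA nanoparticles (NPs) on the cell surface, and CITED carried NPs loaded with rapamycin, an inhibitor of mTOR. The particles were attached by a click reaction for 1 hour, to azide groups that came from a modified sugar given on day 1 of culture. Whether the unmodified cells also received the sugar is not stated. The comparisons therefore ask what conjugation of loaded or blank particles, and the rapamycin load itself, did to integrin transcripts, with the MDSC libraries shared by the first 2 of them.

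Integrins are cell surface receptors made of an alpha and a beta chain, which hold cells to other cells and to the extracellular matrix and signal in both directions across the membrane. Leukocytes use the beta2 family (Itgb2 with Itgal, Itgam, or Itgax) for firm arrest on endothelium, phagocytosis, and complement uptake. They use alpha4 (Itga4 with Itgb1 or Itgb7) to bind VCAM-1 or MAdCAM-1 during entry into tissues, and alpha5 and alphav chains to bind fibronectin, vitronectin, and related proteins. CD11b, the product of Itgam, was one of the antigens by which the cells were purified, so a high level of Itgam in all groups is not a finding.

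Itga4, Itgam, and Itgax are shown by sequence because Itga4 changed most and because Itgam and Itgax, neighbors on a chromosome, moved in opposite directions in both comparisons against MDSC, though both were higher in CITED than in MDSC-NP-Blk. Each line holds the 150 bases directly before the start site, 5′ to 3′ on the gene's strand, from RefSeq on GRCm38.p6. Capitals mark matches, on either strand, to 4 short motifs that were searched: GAGGAA (the core bound by PU.1), GGGCGG (an Sp1 box), TGANTCA (AP-1), and TGTGGT (RUNX).
Itga4 (chr2:79255276-79255425, plus strand): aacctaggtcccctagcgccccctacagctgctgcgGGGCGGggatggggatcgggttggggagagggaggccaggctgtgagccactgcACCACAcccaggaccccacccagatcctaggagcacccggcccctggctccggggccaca
Itgam (chr7:128062490-128062639, plus strand): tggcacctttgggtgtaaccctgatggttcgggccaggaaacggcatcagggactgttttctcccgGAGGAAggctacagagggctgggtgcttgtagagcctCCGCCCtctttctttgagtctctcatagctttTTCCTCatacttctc
Itgax (chr7:128129400-128129549, plus strand): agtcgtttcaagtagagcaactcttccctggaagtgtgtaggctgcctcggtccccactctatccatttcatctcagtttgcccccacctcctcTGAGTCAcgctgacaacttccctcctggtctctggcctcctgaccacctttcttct
The Itga4 window held an Sp1 box 114 bases and a RUNX match 60 bases before the start, the Itgam window held PU.1 core matches at 84 and 15 bases and an Sp1 box at 47 bases, and the Itgax window held an AP-1 match at 56 bases. Over the 250 bases before the start, the PU.1 core letters occurred in 23.3%, the Sp1 box in 32.7%, the AP-1 letters in 6.75%, and the RUNX letters in 14.0% of 32851 mouse promoters, so that apart from the AP-1 letters each match is common. Of the 7 members with a promoter entry, Itga5, Itgav, and Itgb1 also held the PU.1 core letters and Itgb7 held no match to any of the 4 motifs. These matches are descriptions of the sequence, and binding of a factor was not measured.

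On the current mouse assembly (GRCm39, the build of the deposited counts, with gene positions from GENCODE M39) all 10 members are protein-coding genes. The beta2 partners lie on 1 chromosome, Itgal at chr7:126895432-126934320, Itgam at chr7:127661808-127717753, and Itgax at chr7:127728668-127749829, all on the plus strand. Itgam and Itgax are separated by 10914 bases. Itga4 (chr2:79085660-79163467, plus) and Itgav (chr2:83554403-83637260, plus) share a chromosome, as do Itgb7 (chr15:102124429-102140379, minus) and Itga5 (chr15:103252713-103275270, minus). Itgb1 is at chr8:129411876-129460618, Itgb2 at chr10:77366086-77401542, and Itgb3 at chr11:104498826-104561302, each on the plus strand. Counting could be uncertain for 1 member, Itgam, for which 91.3% of 31-base words of its transcripts also occur in the read-through gene Gm49368. The counts given to Gm49368 were 0.868% to 1.19% of those of Itgam, and adding them left every call of Itgam in place. Itgax shared 12.6% of its words with Itgad, an alpha chain that was nearly silent here.

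The libraries held 20604809 to 37855478 counts in genes. MDSC libraries had scaling factors of 1.12 to 1.15 and the other 8 libraries 0.921 to 0.947, and without these factors the median of all genes moved by -0.27 on the log2 scale in CITED against MDSC and by -0.26 in MDSC-NP-Blk against MDSC. The relation between a gene's relative expression and its transcript length also differed between groups. Across 10519 genes, Spearman's rho was 0.22 to 0.35 in MDSC, -0.34 to -0.19 in CITED, and -0.42, -0.05, 0.09, and -0.25 in MDSC-NP-Blk replicates 1 to 4. MDSC-NP-Blk replicates 1 and 4 thus stood apart from replicates 2 and 3, and members that depend on this are given with and without each pair. The granulocytic and monocytic identity of the cells was present in all groups, with Ly6g at 155 to 203 and Ly6c2 at 776 to 1384 CPM (counts scaled by library size and its factor), whereas T and NK cell markers summed to 2.03 to 3.38 CPM, with Ncr1 at 0. A tissue field in the labels names the CNS, but the methods describe cultured bone marrow cells.

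Levels of different genes are compared per transcript length, as TPM values (counts divided by transcript length and scaled to the same sum in each library). In unmodified MDSCs the beta2 system dominated: Itgb2 was at 1368 TPM and Itgam, the chain of Mac-1, at 1330 TPM, and the libraries of these genes overlapped. Itgax (CD11c) followed at 258 TPM, Itgb1 at 145 TPM, Itgal (the LFA-1 chain) at 98.5 TPM, Itga5 at 47.3 TPM, Itgb3 at 34.1 TPM, Itgb7 at 20.8 TPM, Itgav at 18.8 TPM, and Itga4 at 15.1 TPM. From Itgam downward no neighbors in this order overlapped between libraries. The order changed little in the conjugated cells, where Itgam and Itgb2 again led and overlapped, at 1207 and 1072 TPM in MDSC-NP-Blk and at 1381 and 1336 TPM in CITED. In MDSC-NP-Blk, Itgb1 (132 TPM) and Itgax (131 TPM) overlapped, as did Itga5 with Itgb3 and Itgb3 with Itgb7. Itgb7 (23.1 TPM) was above Itgb3 (17.99 TPM) in CITED, the reverse of the other groups, and no libraries of this pair overlapped. Itga4 was the lowest member in all groups, at 5.29 TPM in MDSC-NP-Blk and 2.66 TPM in CITED.

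Normalized counts (counts scaled to a common library size) are used for the same gene between groups. Each log2 fold change below is followed by its standard error and by the adjusted p of edgeR's quasi-likelihood test with Benjamini-Hochberg adjustment over 17676 genes, and a gene passed where that p was below 0.05. In CITED against MDSC, 5 members were higher (Itga5, Itgam, Itgb1, Itgb2, and Itgb7), beside 22.2% of all genes, and 3 were lower (Itga4, Itgax, and Itgb3), beside 22.2% of all genes. Scaled by library totals alone, 2 were higher and 5 lower. In MDSC-NP-Blk against MDSC, 5 were higher (Itgal, Itgam, Itgav, Itgb1, and Itgb7; background 19.9%) and 2 lower (Itga4 and Itgax; background 18.6%), which became 1 higher and 4 lower with library totals alone. In CITED against MDSC-NP-Blk, 4 were higher (Itga5, Itgam, Itgax, and Itgb2; background 10.5%) and 4 lower (Itga4, Itgal, Itgav, and Itgb3; background 11.4%), and library totals left these numbers at 4 and 4. These backgrounds include genes of very low count, which the members are not. Under a stricter filter (filterByExpr, 12379 genes), 3968 genes were higher and 3877 lower in CITED against MDSC. The numbers were 3556 and 3340 in MDSC-NP-Blk against MDSC, and 1958 and 2088 in CITED against MDSC-NP-Blk.

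Most of these changes were small. With a log2 fold change of at least 1 required as well, Itga4 alone passed among the members, as a lower gene in each comparison. It passed in CITED against MDSC-NP-Blk by a log2 fold change of -1.001, and it fell short of 1 with DESeq2 (-0.996), relative log expression factors (-0.997), the 8 libraries alone (-0.998), the replicate block (-0.997), and the length relation removed (-0.90). It also fell short there without MDSC-NP-Blk replicate 2 (-0.98) or 3 (-0.92), without both (-0.83), and without CITED replicate 2 (-0.99), 3 (-0.996), or 4 (-0.96). It fell short in MDSC-NP-Blk against MDSC with the length relation removed (-0.85) and without MDSC-NP-Blk replicates 1 and 4 (-0.98). The background of such lower genes was 6.70% in CITED against MDSC, 2.86% in MDSC-NP-Blk against MDSC, and 2.00% in CITED against MDSC-NP-Blk. No member was higher by 1 or more on the log2 scale in edgeR or DESeq2, whatever its p, and the background of such higher genes was 3.28%, 1.88%, and 0.651% in the same order. The libraries of the groups did not overlap for 8, 6, and 8 members, beside 42.5%, 35.6%, and 21.2% of all genes. The median log2 fold change of the 10 members was 0.12, 0.12, and 0.02, against -0.05, -0.03, and 0.00 over all genes tested. Over the 10556 genes with a mean normalized count above 50, it was 0.016, 0.003, and 0.007.

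**Figure D1:**
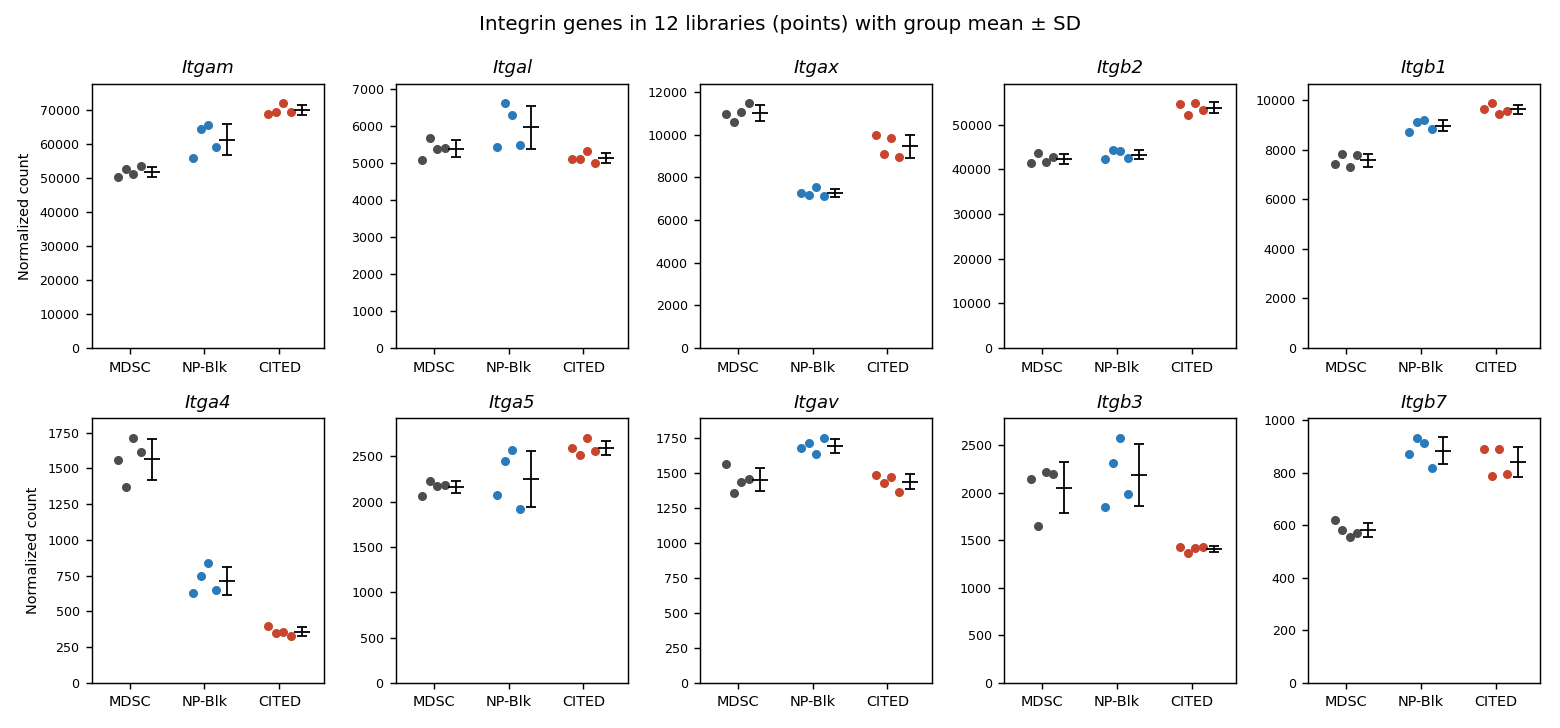
Normalized counts of the 10 integrin genes (linear axes from 0), with each library as a point and the group mean ± SD (n = 4) as a bar beside it. Itga4 fell from 1373 to 1713 in MDSC to 331 to 399 in CITED, and MDSC replicate 2 lies below the other MDSC libraries for Itgb3.

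Among the alpha chains that pair with beta1 and beta7, Itga4 had the largest change. Its normalized counts were 1559, 1373, 1713, and 1612 in MDSC, 626, 746, 840, and 647 in MDSC-NP-Blk, and 399, 350, 355, and 331 in CITED. All libraries of the 3 groups were separate, with MDSC highest and CITED lowest. The mean was 1564 ± 143 (SD, n = 4) in MDSC, 715 ± 98.6 in MDSC-NP-Blk, with CITED at 359 ± 28.7. Itga4 was thus 4.37-fold lower in CITED than in MDSC (log2 fold change -2.13, SE 0.0917, edgeR adjusted p = 7.9e-20), 2.18-fold lower in MDSC-NP-Blk than in MDSC (-1.13, SE 0.0861, adjusted p = 6.1e-13), and 2.00-fold lower in CITED than in MDSC-NP-Blk (-1.001, SE 0.0929, adjusted p = 1.9e-10). In bulk RNA, fewer cells that express a gene and less RNA of it per cell cannot be told apart.

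Itga4 has the longest canonical transcript of the members (9951 bases, the 97.3rd percentile among genes), and with the length relation removed its log2 fold changes were -1.75, -0.85, and -0.90 in the same order, each past the test. They were -0.98 in MDSC-NP-Blk against MDSC without MDSC-NP-Blk replicates 1 and 4, and -1.31 without replicates 2 and 3. Eosinophils are known for high alpha4 on their surface, and mast cells and basophils also carry alpha4 integrins. Their markers did not all move with Itga4. The 5 eosinophil markers summed to 1254 to 1496 CPM in MDSC, 1003 to 1199 CPM in MDSC-NP-Blk, and 409 to 416 CPM in CITED. Of these markers 2 fell in CITED against MDSC, Epx (eosinophil peroxidase, log2 fold change -2.41) and Prg2 (major basic protein, -1.27), 1 rose (Siglecf, 0.30), and 2 did not pass. In MDSC-NP-Blk against MDSC, Epx fell (-0.76), whereas Prg2 did not pass (0.08, edgeR adjusted p = 0.213). Mast cell and basophil markers summed higher in MDSC-NP-Blk (595 to 645 CPM) than in MDSC (510 to 547 CPM), and were lowest in CITED (344 to 356 CPM). B cell markers, low throughout, summed to 10.98 to 14.96 CPM in MDSC, 7.12 to 10.2 CPM in MDSC-NP-Blk, and 2.90 to 4.07 CPM in CITED. The 9 monocytic and macrophage markers were mixed, with 4 higher and 5 lower in CITED against MDSC. They gave 3 higher and 4 lower in MDSC-NP-Blk against MDSC, and 2 higher and 4 lower in CITED against MDSC-NP-Blk. In each comparison against MDSC, 1 of these rises changes sign with library totals alone. The part of these cells in the change of Itga4 was not tested.

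The genes whose pattern over the 12 libraries was most like that of Itga4 were Rrm1 (a ribonucleotide reductase subunit), Kif20b (a mitotic kinesin), and Top2a (a topoisomerase of dividing cells). The root mean square difference from Itga4, in log2 CPM centered on each gene's mean, was 0.0980, 0.108, and 0.109 among 10555 genes compared. Their log2 fold changes in CITED against MDSC were -2.00, -2.06, and -2.15, next to -2.13 for Itga4.

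Itga5, the alpha chain of the fibronectin receptor, went the other way from Itga4 in CITED. In normalized counts, the libraries gave 2066, 2224, 2176, and 2188 in MDSC, 2069, 2444, 2564, and 1920 in MDSC-NP-Blk, and 2588, 2510, 2702, and 2560 in CITED. CITED lay above every MDSC library but overlapped MDSC-NP-Blk, whose libraries spread widely. Its log2 fold change was 0.26 in CITED against MDSC (SE 0.0671, edgeR adjusted p = 0.0015), though it was -0.01 with library totals alone, that is 0.26 relative to the shift of all genes. In MDSC-NP-Blk against MDSC it was 0.06 (adjusted p = 0.526), -0.20 with library totals alone, 0.21 without MDSC-NP-Blk replicates 1 and 4 (adjusted p = 0.00364), and -0.13 without replicates 2 and 3 (adjusted p = 0.097). In CITED against MDSC-NP-Blk it was 0.20 (SE 0.0672, adjusted p = 0.027). That call was lost without MDSC-NP-Blk replicate 1 (0.16, adjusted p = 0.0767), without MDSC-NP-Blk replicate 4 (0.14, adjusted p = 0.151), without both (0.05, adjusted p = 0.641), and without CITED replicate 3 (0.18, adjusted p = 0.0815).

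Itgav, the alpha chain of vitronectin receptors and of integrins that activate latent TGF-beta, was highest with blank particles. The libraries had normalized counts of 1560, 1355, 1432, and 1457 in MDSC, 1677, 1710, 1632, and 1748 in MDSC-NP-Blk, and 1485, 1425, 1467, and 1363 in CITED. MDSC-NP-Blk lay above both other groups, which overlapped. Itgav had a log2 fold change of 0.22 in MDSC-NP-Blk against MDSC (SE 0.0609, edgeR adjusted p = 0.00347), which turned to -0.04 with library totals alone, or 0.22 relative to the shift of all genes. It was -0.24 in CITED against MDSC-NP-Blk (SE 0.0613, adjusted p = 0.00358), a call lost with the length relation removed (-0.15, adjusted p = 0.0642). CITED against MDSC gave -0.02 (adjusted p = 0.858), and this value was 0.27 for its long transcript (7392 bases) with the length relation removed (adjusted p = 2.7e-04) and -0.29 with library totals alone (adjusted p = 1.5e-04).

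Per transcript length, Itga4 made up 18.5% ± 1.38 (SD, n = 4) of the summed TPM of Itga4, Itga5, and Itgav in MDSC, against 8.80% ± 0.507 in MDSC-NP-Blk and 4.39% ± 0.306 in CITED, with no overlap between groups. Itga5 was 58.3%, 62.9%, and 72.0% of this sum, and Itgav 23.2%, 28.3%, and 23.6%. The ratio of Itga4 to its partner Itgb1 was 0.104, 0.0401, and 0.0188 in the same order, and that of Itga4 to its other partner Itgb7 was 0.728, 0.218, and 0.115. The shares and ratios are descriptions of transcripts, and subunit proteins at the surface were not measured here. Division by length does not remove the length relation, which differed between groups. Itga4 (9951 bases) and Itgav (7392 bases) have longer transcripts than Itga5 (4382 bases). With that relation removed, the log2 fold changes in CITED against MDSC were -1.75 (Itga4), 0.35 (Itga5), and 0.27 (Itgav).

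**Figure D2:**
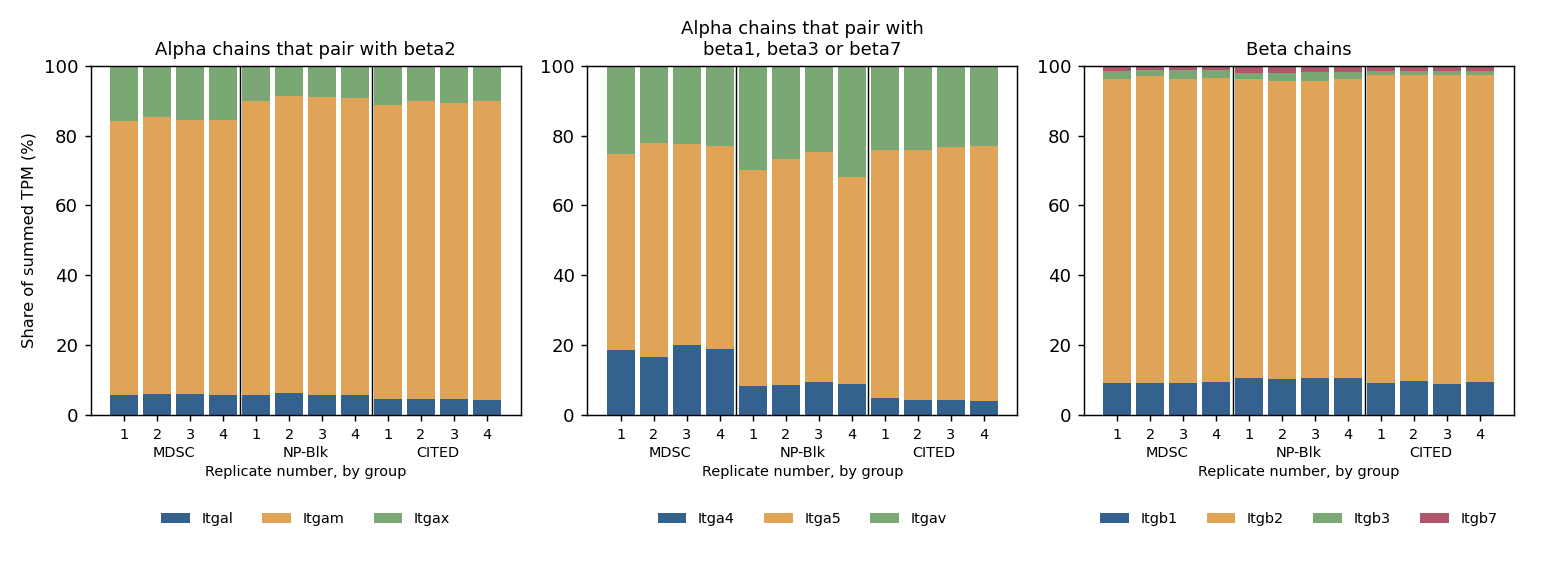
Share of summed TPM (percent) held by each subunit within 3 sets of chains, with 1 stacked bar per library and the groups divided by vertical lines. Itga4 is 16.7% to 19.96% of its set in MDSC and 4.15% to 4.82% in CITED, and Itgb2 has group means of 85.4% to 88.0% among the beta chains. The shares are not corrected for the length relation that differed between groups.

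Among the beta2 partners, Itgam rose with conjugation and rose again with the rapamycin load. Normalized counts were 50259, 52597, 51363, and 53640 in MDSC, 56020, 64468, 65793, and 59331 in MDSC-NP-Blk, and 68935, 69517, 72108, and 69565 in CITED. The groups did not overlap in any comparison. The means were 51965 ± 1469 (SD, n = 4), 61403 ± 4544, and 70031 ± 1414. The log2 fold change was 0.43 in CITED against MDSC (SE 0.0444, edgeR adjusted p = 3.7e-10), 0.24 in MDSC-NP-Blk against MDSC (SE 0.0444, adjusted p = 3.2e-05), and 0.19 in CITED against MDSC-NP-Blk (SE 0.0443, adjusted p = 0.0014). With library totals alone the first was 0.16 and the second turned to -0.02, which are 0.43 and 0.24 relative to the shift of all genes. Without MDSC-NP-Blk replicates 1 and 4 the difference between CITED and MDSC-NP-Blk was 0.11 (adjusted p = 0.0423), and without replicates 2 and 3 that between MDSC-NP-Blk and MDSC was 0.14 (adjusted p = 0.00583). Itgam is high in granulocytes and monocytes. The 10 granulocytic markers summed to 34563 to 38674 CPM in MDSC, 49430 to 52109 CPM in MDSC-NP-Blk, and 36598 to 41358 CPM in CITED. Single markers differed from the sum. Mmp8, Cxcr2, Csf3r, and Retnlg had their highest group mean in CITED, as Itgam had, and the other 6 did not. In CITED against MDSC 5 of the 10 rose (1 of these, Ly6g, changes sign with library totals alone) and 3 fell, in MDSC-NP-Blk against MDSC 9 rose (2 of these, Ly6g and Ltf, change sign with library totals alone), and in CITED against MDSC-NP-Blk 2 rose and 5 fell. The 9 monocytic and macrophage markers summed to 2153 to 2282, 2812 to 2942, and 2485 to 2631 CPM. Their part in the level of Itgam was not tested.

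Itgax, the chain of CD11c that is also a marker of dendritic cells, fell with blank particles and was higher with the load than without it. Its normalized counts were 10988, 10584, 11074, and 11481 in MDSC, 7265, 7158, 7538, and 7152 in MDSC-NP-Blk, and 10010, 9077, 9831, and 8949 in CITED. All 3 groups were separate, and CITED lay between the others. Itgax had a log2 fold change of -0.60 in MDSC-NP-Blk against MDSC (SE 0.0477, edgeR adjusted p = 1.6e-12), 0.38 in CITED against MDSC-NP-Blk (SE 0.0477, adjusted p = 1.2e-07), and -0.22 in CITED against MDSC (SE 0.0475, adjusted p = 1.9e-04). Dendritic cell markers summed to 33.4 to 40.9 CPM in MDSC, 41.8 to 48.9 CPM in MDSC-NP-Blk, and 43.7 to 48.7 CPM in CITED. Of these 7 markers, Ccr7 rose (0.33) and Zbtb46 (named after its value was seen) fell (-0.99) in MDSC-NP-Blk against MDSC, and 5 did not pass. Clec9a averaged 48.4 normalized counts in MDSC against 64.9 (MDSC-NP-Blk) and 118 (CITED). It rose in CITED against MDSC (log2 fold change 1.29, edgeR adjusted p = 5.9e-06) and in CITED against MDSC-NP-Blk (0.88, adjusted p = 0.00224), the comparison in which Itgax was also higher and in which no other marker of this list passed. In CITED against MDSC, Ccr7 (0.26, which changes sign with library totals alone) also rose and Siglech, from low counts, fell. The part of dendritic cells in the level of Itgax was not tested.

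Itgal, the alpha chain of the ICAM-1 receptor LFA-1, moved little. The normalized counts of Itgal were 5087, 5659, 5374, and 5408 in MDSC, 5434, 6610, 6294, and 5482 in MDSC-NP-Blk, and 5105, 5095, 5324, and 4999 in CITED. MDSC overlapped both other groups, and CITED lay below every MDSC-NP-Blk library. For Itgal, the log2 fold change in MDSC-NP-Blk against MDSC was 0.15 (SE 0.0559, edgeR adjusted p = 0.0351), and this call was lost without MDSC replicate 1 (0.12), 3 (0.15), or 4 (0.15), without MDSC-NP-Blk replicate 2 (0.09) or 3 (0.12), and in a fit of the 8 libraries alone (0.13, adjusted p = 0.0951). It turned to -0.115 with library totals alone and was 0.01 without MDSC-NP-Blk replicates 2 and 3. In CITED against MDSC-NP-Blk it was -0.22 (SE 0.0561, adjusted p = 0.00393), or -0.09 without MDSC-NP-Blk replicates 2 and 3 (adjusted p = 0.288). In CITED against MDSC it was -0.07 (adjusted p = 0.342), 0.08 with the length relation removed, and -0.34 with library totals alone (adjusted p = 3.4e-06).

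Itgb2 (CD18), the shared beta chain of these receptors, was higher in CITED than in both other groups. Itgb2 had normalized counts of 41325, 43777, 41666, and 42872 in MDSC, 42331, 44328, 44146, and 42442 in MDSC-NP-Blk, and 54659, 52170, 54805, and 53360 in CITED. CITED lay above all 8 other libraries, among which MDSC and MDSC-NP-Blk overlapped. Itgb2 had a log2 fold change of 0.34 in CITED against MDSC (SE 0.0395, edgeR adjusted p = 4.7e-09), which was 0.07 with library totals alone (adjusted p = 0.138), and 0.31 in CITED against MDSC-NP-Blk (SE 0.0395, adjusted p = 1.4e-07). It was 0.03 in MDSC-NP-Blk against MDSC (adjusted p = 0.586), where library totals alone gave -0.23 (adjusted p = 2.8e-06), or 0.03 relative to the shift of all genes.

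Per transcript length, Itgam made up 78.9% ± 0.329 (SD, n = 4) of the summed TPM of Itgal, Itgam, and Itgax in MDSC, against 84.9% ± 0.481 in MDSC-NP-Blk and 85.04% ± 0.532 in CITED. Itgax was 15.3%, 9.23%, and 10.5% of this sum and Itgal 5.84%, 5.89%, and 4.46%. The conjugated groups thus overlapped in the Itgam share and lay above MDSC. The 3 alpha chains together had 1.23, 1.32, and 1.22 times the TPM of Itgb2. These shares and ratios were not corrected for the length relation that differed between groups.

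The other beta chains moved in different directions. Itgb1, the common partner of alpha4 and alpha5, had normalized counts of 7407, 7816, 7307, and 7793 in MDSC, 8722, 9095, 9207, and 8821 in MDSC-NP-Blk, and 9626, 9869, 9420, and 9561 in CITED. The groups did not overlap. The log2 fold change was 0.34 in CITED against MDSC (SE 0.0450, edgeR adjusted p = 6.0e-08) and 0.24 in MDSC-NP-Blk against MDSC (SE 0.0450, adjusted p = 3.7e-05). With library totals alone these were 0.07 (adjusted p = 0.205) and -0.02, or 0.34 and 0.24 relative to the shift of all genes. CITED against MDSC-NP-Blk gave 0.10 (adjusted p = 0.11), which passed with DESeq2 (0.11, adjusted p = 0.0167) and with the length relation removed (0.15, adjusted p = 0.00433).

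Itgb3, which pairs with Itgav and, in platelets, with Itga2b, was lower in CITED than in both other groups. Itgb3 had normalized counts of 2146, 1652, 2215, and 2199 in MDSC, 1853, 2318, 2576, and 1989 in MDSC-NP-Blk, and 1427, 1366, 1418, and 1429 in CITED. CITED lay below all 8 other libraries, among which the groups overlapped. For Itgb3, the log2 fold change was -0.54 in CITED against MDSC (SE 0.0832, edgeR adjusted p = 1.2e-06) and -0.63 in CITED against MDSC-NP-Blk (SE 0.0834, adjusted p = 2.9e-07). MDSC replicate 2 was low, and without it the first value was -0.63. With the length relation removed the first value was -0.35 (adjusted p = 8.9e-05).

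Between MDSC-NP-Blk and MDSC, the log2 fold change of Itgb3 was 0.09 (adjusted p = 0.407), 0.25 without MDSC-NP-Blk replicates 1 and 4 (adjusted p = 0.0041), -0.11 without replicates 2 and 3 (adjusted p = 0.301), 0.21 with the length relation removed (adjusted p = 0.0147), and -0.17 with library totals alone. Megakaryocyte and platelet markers summed to 154 to 180 CPM in MDSC, 245 to 257 CPM in MDSC-NP-Blk, and 229 to 248 CPM in CITED. Of these 6 markers, all rose in MDSC-NP-Blk against MDSC, and in CITED against MDSC 1 rose (Pf4, platelet factor, 0.87) and 1 fell (Itga2b, -0.21). Of the 6, Itga2b (-0.69), Gp1ba (-0.65), and Gp1bb (-0.73) fell in CITED against MDSC-NP-Blk (both glycoprotein genes named after their values were seen), Pf4 rose (0.27), and 2 did not pass. Pf4 had the highest mean of the 6 in each group, and the other 5 had lower means in CITED than in MDSC-NP-Blk. The part of these cells in the level of Itgb3 was not tested. The genes most like Itgb3 over the 12 libraries were Fam107b, Prkcq (a protein kinase C), and Fgd4 (an exchange factor for Cdc42), at root mean square differences of 0.109, 0.124, and 0.129.

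Itgb7, the other partner of alpha4, rose in both conjugated groups. Itgb7 was measured at normalized counts of 618, 582, 556, and 569 in MDSC, 871, 932, 912, and 817 in MDSC-NP-Blk, and 890, 789, 891, and 793 in CITED. Both conjugated groups lay above MDSC and overlapped each other. Itgb7 had a log2 fold change of 0.53 in CITED against MDSC (SE 0.0762, edgeR adjusted p = 3.5e-07), 0.60 in MDSC-NP-Blk against MDSC (SE 0.0758, adjusted p = 4.2e-08), and -0.07 in CITED against MDSC-NP-Blk (SE 0.0751, adjusted p = 0.558). With library totals alone, Itgb7 was also higher in both, by 0.26 and 0.34. The genes most like Itgb7 were St3gal1 (a sialyltransferase), Napsa (an aspartic protease), and Arid5b (a chromatin-associated protein), at root mean square differences of 0.0526, 0.0568, and 0.0627. Mast cell and basophil markers, which mark cells known to carry alpha4 integrins, summed to 510 to 547 CPM in MDSC, 595 to 645 CPM in MDSC-NP-Blk, and 344 to 356 CPM in CITED. Of these 7 markers, 5 rose in MDSC-NP-Blk and 5 fell in CITED against MDSC, but 3 of the rises (Mcpt8, Prss34, and Gata2) change sign with library totals alone. All 7 fell in CITED against MDSC-NP-Blk, and their part in the level of Itgb7 was not tested.

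Of the summed TPM of the 4 beta chains, Itgb2 held 87.3% ± 0.331 (SD, n = 4) in MDSC, against 85.4% ± 0.294 in MDSC-NP-Blk and 88.0% ± 0.298 in CITED. Itgb1 held 9.24%, 10.5%, and 9.34%, Itgb3 held 2.17%, 2.21%, and 1.19%, and Itgb7 held 1.33%, 1.93%, and 1.52%. In CITED the Itgb3 share lay below that of every other library. These shares, too, were not corrected for the length relation.

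**Figure D3:**
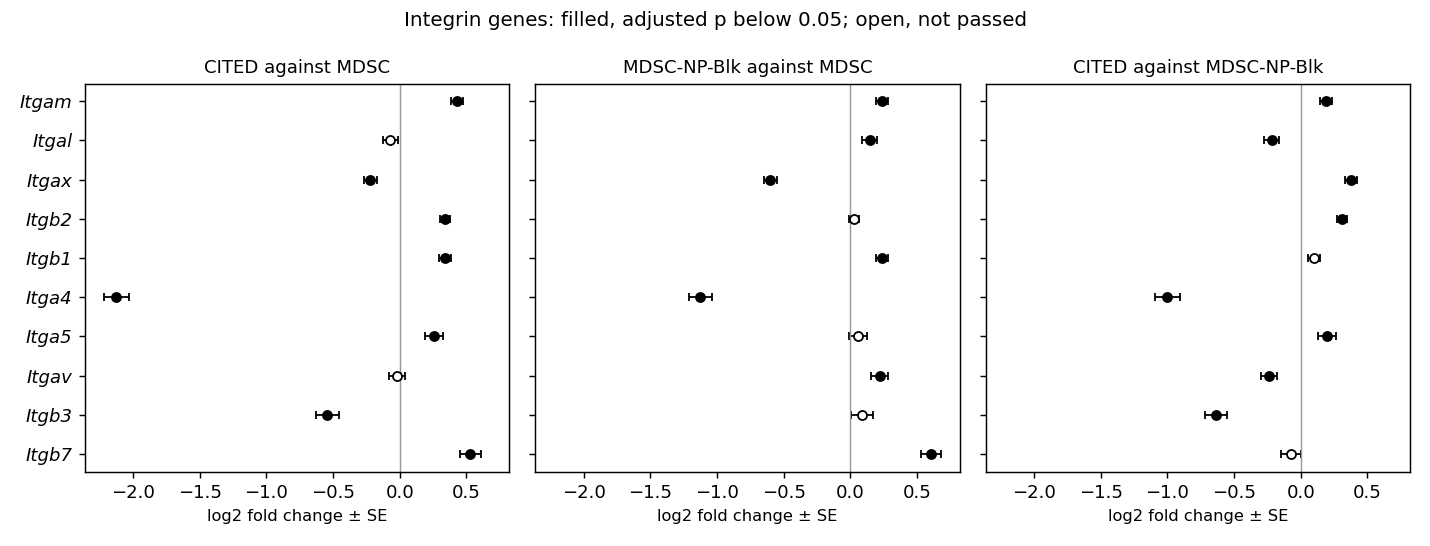
Log2 fold change ± SE of the 10 integrin genes in the 3 comparisons (edgeR, all 12 libraries), with filled points for an adjusted p below 0.05. Itga4 lies at -2.13, -1.13, and -1.001, and the other members lie between -0.63 and 0.60.

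The other integrin genes give the setting of these changes. Of 17 other subunits 15 were tested and 5 were above the expression limit of 50 normalized counts. In CITED against MDSC 2 rose, 5 fell, and 8 did not pass. The laminin-binding chain Itga6 fell (-1.15, SE 0.0848), as did Itgb2l, a beta2-like protein of neutrophils (-0.69, SE 0.0573), and the platelet chain Itga2b (-0.21, SE 0.0717), whereas Itgb5, a partner of Itgav (0.90, SE 0.0594), and the collagen-binding chain Itga1 (0.42, SE 0.0563) rose. Itga2 and Itgae, both named after their values were seen, fell by 1.19 and 1.15 on the log2 scale from low counts. In MDSC-NP-Blk against MDSC, Itga1, Itga2b, Itgb5, and Itgb2l rose, and Itga6 and Itgae fell, though Itgb2l turned negative with library totals alone. In CITED against MDSC-NP-Blk, Itga2, Itga2b, Itga6, and Itgb2l fell. Itgb2l was at 253 TPM in MDSC, close to the level of Itgax, and at 121 TPM in CITED.

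Of 25 tested activators and adaptors that bind integrin tails or join them to actin, 14 rose, 8 fell, and 3 did not pass in CITED against MDSC. Zyx (zyxin, 0.73), Vasp (0.58), and Parvb (beta-parvin, 0.91), which act at sites of actin assembly, rose, and Vcl (vinculin, -1.24), Lims1 (PINCH-1, -0.44), and Parvg (gamma-parvin, -0.36) fell. Of 20 kinases, adaptors, and exchange factors that act after ligand binding, 11 rose and 4 fell, with Tyrobp (DAP12, 1.26), Fcer1g (the FcR gamma chain, 0.92), and the Src family kinase Fgr (0.73) among the risen, and Plcg2 (-0.32), Pik3cg (-0.16), and Crkl (-0.16) among the fallen. With library totals alone, 4 of the 14 and 3 of the 11 rises change sign, none of them among the genes just named. In MDSC-NP-Blk against MDSC these lists gave 13 higher and 7 lower, and 10 higher and 1 lower, of which 4 of the 13 rises (Rap1a, Rap1b, Skap2, and Parvb) and 2 of the 10 (Vav1 and Crk) change sign with library totals alone. In CITED against MDSC-NP-Blk they gave 5 higher and 6 lower, and 4 higher and 3 lower.

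Of 15 inhibitors and trafficking factors, 4 rose, 5 fell, and 6 did not pass in CITED against MDSC. With library totals alone, 1 of the 4 rises changes sign, not 1 of those named next. The adaptor Dok2 (-0.29) and Flna (filamin A, -0.30) fell, and Dok1 (0.60, an adaptor related to Dok2), Itgb1bp1 (ICAP-1, 0.51), and Snx17 (a recycling sorting nexin, 0.43) rose. Of 22 tested ligands, 7 rose, 3 fell, and 12 did not pass. Vcam1, which encodes a ligand of alpha4beta1, fell, with normalized counts of 654 ± 79.8 (SD, n = 4) in MDSC, against 504 ± 59.0 in MDSC-NP-Blk and 154 ± 21.7 in CITED (CITED against MDSC, -2.09, SE 0.113). Spp1 (osteopontin, -0.81) also fell, and Tgfb1 (whose latent form binds alphav integrins, 1.11), Lgals3 (galectin-3, 1.04), and Thbs1 (thrombospondin-1, 0.51) rose. In MDSC-NP-Blk against MDSC, Vcam1 gave -0.37 (SE 0.101, edgeR adjusted p = 0.00279).

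**Figure D4:**
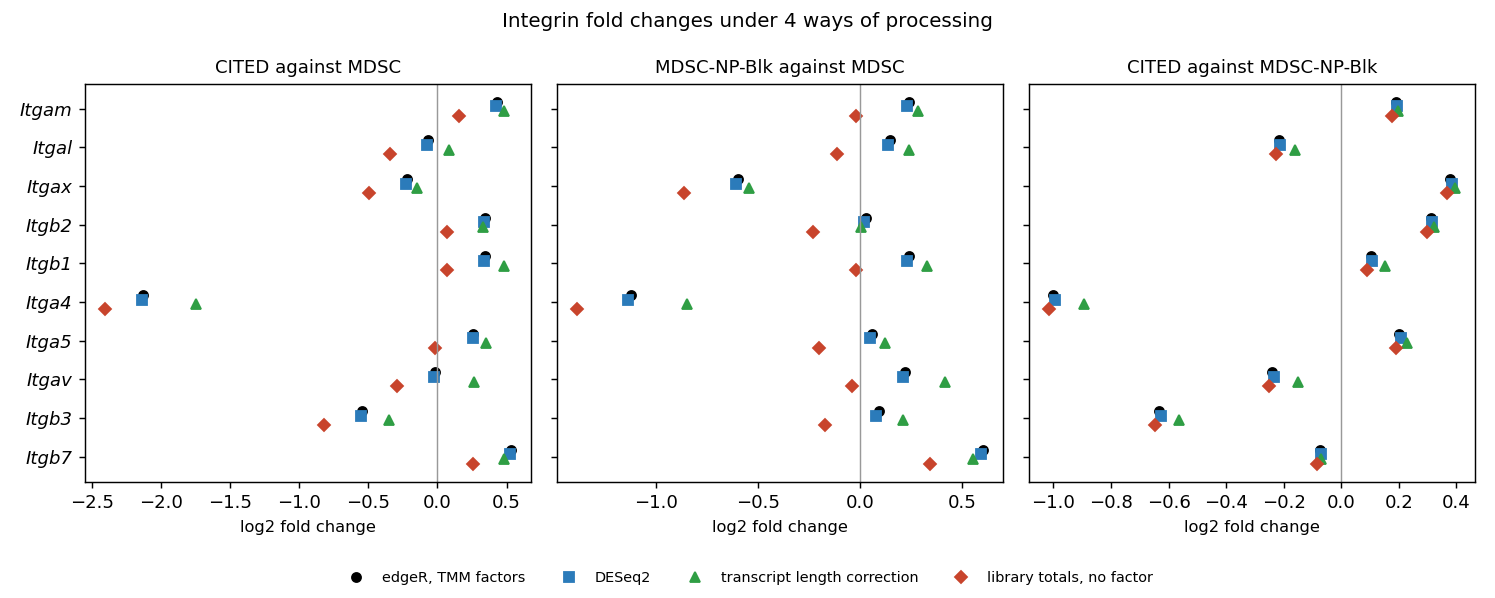
Log2 fold changes of the 10 integrin genes in the 3 comparisons under 4 ways of processing (black, edgeR with TMM factors; blue, DESeq2; green, transcript length relation removed; red, library totals without a factor). Itga4 stays lowest in each panel, while Itga5, Itgal, Itgam, Itgav, Itgb1, Itgb2, and Itgb3 cross zero in MDSC-NP-Blk against MDSC under library totals, as does Itga5 in CITED against MDSC, and Itgal and Itgav cross zero in CITED against MDSC with the length relation removed.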

How the data were processed

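The 12 libraries were grouped by their titles into MDSC, MDSC-NP-Blk, and CITED, 4 each. The deposited table holds raw counts for each gene symbol and library, which the authors obtained by running Salmon 1.4.0 on GENCODE transcripts of GRCm39 and summed with tximport in R 4.3.2. The submitters' processing notes give these versions, and the GENCODE release is not given in the sources used here. The counts are not normalized, and 1 row without a symbol was left out. In edgeR 4.0.16 (R 4.3.3), symbols with at least 2 counts over all libraries were scaled with TMM factors and tested with glmQLFit and glmQLFTest, with the group as the only term. P-values were adjusted by the Benjamini-Hochberg method over 17676 genes. The main rule was an adjusted p below 0.05, and a log2 fold change of at least 1 as well, the thresholds of the study, was an alternative.

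TPM and lengths used the canonical transcript of GENCODE M39, and transcript length was removed with a loess curve (span 0.5) in each library. TPM levels were compared between genes within a group, and shares and ratios of TPM were described without a test. The loess curve was not applied to TPM values. Depth was 20604809 to 37855478 counts, and 3 counts set the floor. The methods describe the data points as biological replicates. P-values judge a difference against the spread between these libraries. Whether each library came from a separate mouse or marrow preparation is not stated.

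The members and gene lists were chosen with earlier results of these data known. All members are named, with the 3 genes of lowest p per direction in each list (adjusted p below 0.05 and mean normalized count above 50 in CITED against MDSC), and the 3 genes most alike for the 3 members that changed most. A gene that this rule names is not reported here. DESeq2 1.42.0, other factors and filters, fits of 8 libraries, a replicate block, robust estimation, the length correction, and fits without 1 library were alternatives. Fits without pairs of MDSC-NP-Blk libraries and the sum of Itgam and Gm49368 were added after seeing the data. The steps were tested on simulated data of the 12 libraries (17306 genes, 200 changed in CITED by a log2 fold change of 1.5). In CITED against MDSC, edgeR called 212, with all 200 among them, and DESeq2 called 206, with 199 of the 200 among them. Every simulated gene had the same relative spread, and no shift of all genes or length relation was built in. The simulation therefore does not test smaller changes or those 2 effects. Figures were drawn with Python 3.11.15 and matplotlib 3.10.9.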

Additional observations from a re-analysis of the deposited data

Results flagged for a closer look

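A single library lay far from the other 3 of its group in 3 of the 60 group values examined (normalized counts and shares of the members), and chance gives about 1 in 20. For Itgb3, MDSC replicate 2 had a normalized count of 1652, against 2146 to 2215 in the other MDSC libraries. The same library held an Itgb3 share of 1.70% of the beta chains, against 2.29% to 2.38%. Without it the mean share in MDSC was 2.33%, and the log2 fold changes of Itgb3 were -0.63 in CITED against MDSC (edgeR adjusted p = 4.2e-09) and 0.001 in MDSC-NP-Blk against MDSC. For Itgb7, MDSC replicate 1 held a share of 1.44% of the beta chains, against 1.28% to 1.29% in the others. Both Itgb7 and Itgb3 were measured in the same sum, so their shares are not independent.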

How the results depend on the processing

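Requiring a log2 fold change of at least 1 as well, which no member reached upward in edgeR or DESeq2 at any p, left 0 members higher and 1 lower in every comparison. The lower one, Itga4, was at -1.001 in CITED against MDSC-NP-Blk, and fell short of 1 there with DESeq2 (-0.996), relative log expression factors (-0.997), the 8 libraries alone (-0.998), the replicate block (-0.997), and the length correction (-0.90), and in 5 of the fits without 1 library. It also fell short in MDSC-NP-Blk against MDSC with the length correction (-0.85) and without MDSC-NP-Blk replicates 1 and 4 (-0.98). Library totals alone gave 2 higher and 5 lower in CITED against MDSC and 1 higher and 4 lower in MDSC-NP-Blk against MDSC. They reversed Itga5 in CITED against MDSC (-0.014) and, in MDSC-NP-Blk against MDSC, Itga5 (-0.20), Itgal (-0.115), Itgam (-0.021), Itgav (-0.041), Itgb1 (-0.020), Itgb2 (-0.23), and Itgb3 (-0.17), each by the shift of all genes. The length correction reversed Itgal (0.081) and Itgav (0.27) in CITED against MDSC. Dropping MDSC-NP-Blk replicates 2 and 3 reversed Itga5 (-0.13), Itgb2 (-0.016), and Itgb3 (-0.11) in MDSC-NP-Blk against MDSC. Leaving out 1 library at a time gave 5 to 5 members higher and 3 to 3 lower in CITED against MDSC, 4 to 5 and 2 to 2 in MDSC-NP-Blk against MDSC, and 3 to 4 and 4 to 4 in CITED against MDSC-NP-Blk. Over these fits Itgav ranged from -0.049 to 0.020 in CITED against MDSC, and Itga5 from -0.01 to 0.12 in MDSC-NP-Blk against MDSC. Of all alternative fold changes of the members, 682 kept direction and side of the threshold, 16 reversed, 15 lost the call, and 7 gained it.

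Whether replicate numbers pair the libraries could not be decided, because each group gives only 4 deviations per gene from its mean. In these deviations, same-numbered libraries correlated at -0.06 to 0.14. Between MDSC-NP-Blk and CITED libraries the mean correlation was 0.051 for same numbers and -0.017 for other numbers. It was 0.010 and -0.004 between MDSC and CITED libraries, and -0.017 and 0.006 between MDSC and MDSC-NP-Blk libraries. The replicate block left the counts of members at 5 higher and 3 lower, 5 and 2, and 4 and 4. Using the longest transcript moved 13 of 30 shares, with Itgam at 74.5%, 81.5%, and 81.7% of the beta2 partners in MDSC, MDSC-NP-Blk, and CITED. The causes were not tested beyond the construction of each alternative.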
